A study of Mus musculus with 20 samples.

Results

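The 6 genes described here encode 4 insulin-like growth factor (IGF) binding proteins (Igfbp2, Igfbp3, Igfbp4 and Igfbp5), the ligand Igf1 and its receptor Igf1r. They were taken by gene name from the deposited abundance tables, and make up 6 of 54446 listed gene IDs. They were chosen by their measured TPM, above all the rise of Igfbp5 after 96 h, the largest of that time step. Their levels relative to 96 h are therefore given as a description with no test. Tests were run among the groups collected at 120 h. Those groups also supplied the later values of the rise. Tests of Igfbp5 among them, and counts of members that include it, are therefore not free of the choice. All 6 were among the 14290 genes tested, those with a mean of at least 1 TPM over all libraries. TPM is a transcript abundance corrected for length and scaled to the same total in every library.

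Bulk RNA was sequenced from structures grown from mouse embryonic stem cells of the F1G4 strain that carry 2 reporters, T::H2B-mCherry for Brachyury and Sox2::H2B-Venus. In all 5 groups the cells were freed of feeder cells, aggregated for 48 h and given a pulse of 3 µM CHIR99021, an inhibitor of GSK3 that activates WNT signalling. The group 96h holds precursors of trunk-like structures collected at 96 h. The other groups were collected at 120 h: Gastruloid, grown by the gastruloid protocol; TLSMG, grown in Matrigel, a basement membrane extract; TLSMGC, grown in Matrigel with added CHIR; and TLSMGCL, grown in Matrigel with CHIR and LDN, an inhibitor of BMP type I receptors. The labels give no dose for these later additions. Each group has 3 libraries, described in the labels as biological replicates, each from 10 pooled structures at 96 h and 6 at 120 h. The structures were picked for an asymmetric pole, so the libraries describe picked structures, and all come from 1 reporter line.

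IGF1 and IGF2 bind the receptor tyrosine kinase IGF1R, which acts through adaptor proteins on PI3K, AKT and mTOR and on the MAP kinase pathway, and AKT keeps FOXO transcription factors out of the nucleus. Secreted IGF binding proteins hold most IGF outside cells and can block or prolong its action. Proteases such as PAPP-A and ADAM12 cut certain binding proteins and free the ligand. In embryos IGF signalling is known mainly as a driver of growth, and Igfbp5 is known for expression in developing muscle and neural tissue.

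Igfbp2, Igfbp5 and Igfbp3 each lie beside another binding protein gene. Igfbp2 (ENSMUSG00000039323.18, chr1:72824503-72852474, plus strand) and Igfbp5 (ENSMUSG00000026185.8, chr1:72857932-72874884, minus strand) point tail to tail with 5457 bases and no other listed gene between them. Igfbp3 (ENSMUSG00000020427.11, chr11:7206086-7213923, minus strand) lies 3539 bases from Igfbp1, and Igfbp4 (ENSMUSG00000017493.12, chr11:99041244-99054392, plus strand) lies elsewhere on chromosome 11. Coordinates are those of the tables, on mm10. The 250 bases before the RefSeq start (GRCm38.p6) are shown for the 4 binding protein genes because in both CHIR groups, against TLSMG, Igfbp2 was higher while Igfbp5, Igfbp4 and Igfbp3 were lower. They lie at chr1:72874866-72875115 (minus strand) for Igfbp5, chr1:72824230-72824479 (plus strand) for Igfbp2, chr11:99040994-99041243 (plus strand) for Igfbp4 and chr11:7213924-7214173 (minus strand) for Igfbp3. Each reads 5′ to 3′ on the gene's strand, and capitals mark matches to a motif searched.
Igfbp5: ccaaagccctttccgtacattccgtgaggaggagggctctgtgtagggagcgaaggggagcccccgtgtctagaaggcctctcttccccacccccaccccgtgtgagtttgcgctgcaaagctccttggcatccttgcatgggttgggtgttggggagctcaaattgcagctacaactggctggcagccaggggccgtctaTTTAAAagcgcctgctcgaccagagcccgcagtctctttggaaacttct
Igfbp2: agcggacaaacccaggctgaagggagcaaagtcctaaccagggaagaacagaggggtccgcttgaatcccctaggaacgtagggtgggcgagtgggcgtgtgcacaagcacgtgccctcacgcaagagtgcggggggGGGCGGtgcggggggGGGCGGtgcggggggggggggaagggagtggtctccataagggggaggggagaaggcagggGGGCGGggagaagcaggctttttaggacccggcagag
Igfbp4: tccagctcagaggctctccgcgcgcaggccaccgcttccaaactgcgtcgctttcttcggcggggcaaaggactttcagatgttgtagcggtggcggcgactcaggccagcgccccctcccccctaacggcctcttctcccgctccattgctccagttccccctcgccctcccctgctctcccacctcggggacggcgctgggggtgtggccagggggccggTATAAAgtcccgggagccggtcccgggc
Igfbp3: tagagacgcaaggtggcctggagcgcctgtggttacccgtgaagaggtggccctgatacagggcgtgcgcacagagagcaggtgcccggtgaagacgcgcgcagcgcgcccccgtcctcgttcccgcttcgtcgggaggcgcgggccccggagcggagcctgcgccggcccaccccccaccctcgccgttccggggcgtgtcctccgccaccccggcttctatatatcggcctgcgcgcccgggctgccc
The motifs searched on both strands were the TATA box core TATAAA, its variant spelled TTTAAA, the GC box GGGCGG and the TCF/LEF core CTTTGA. Igfbp5 held TTTAAA starting 49 bases before the start, Igfbp4 held TATAAA at 28 bases, and Igfbp2 held GGGCGG at 113, 98 and 37 bases. Igfbp3 held no match to these spellings. Other spellings of the TATA box were not searched, and the Igfbp3 window reads tatatat near its end. These distances count from the RefSeq start, which for Igfbp5 lies inside the gene's coordinates given above. Igfbp2 had 2 RefSeq entries, of which the first is shown. Of 32817 RefSeq windows of this length, 12.4% held TATAAA, 12.1% TTTAAA, 32.7% GGGCGG and 13.8% CTTTGA. The windows had 58.8% GC for Igfbp5, 67.2% for Igfbp2, 69.2% for Igfbp4 and 73.2% for Igfbp3, all above the median of 52.4% over all windows. A match describes letters in a window and shows no binding.

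Igfbp5 had the widest range of group means of log2(TPM + 1) among the 6 genes. At 96 h its level was 4.16, 3.96 and 4.95 TPM in the 3 libraries. Gastruloid libraries held 708, 672 and 756 TPM, and TLSMG libraries 384, 443 and 565 TPM. TLSMGC libraries held 50.3, 49.0 and 28.8 TPM, and TLSMGCL libraries 91.3, 58.1 and 79.7 TPM. The 5 groups did not overlap, in the order Gastruloid, TLSMG, TLSMGCL, TLSMGC, 96h. Ranked among all genes of a library, Igfbp5 stood at places 159 to 191 in Gastruloid libraries and 237 to 361 in those of TLSMG, but 1852 to 2715 in TLSMGCL, 3368 to 5053 in TLSMGC and 10696 to 11212 at 96 h. As a description, the ratio of mean TPM to 96h was 164 in Gastruloid, 107 in TLSMG, 9.80 in TLSMGC and 17.5 in TLSMGCL.

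Igfbp2, which encodes a binding protein common in early embryos, moved little by comparison. Its level was 54.5, 43.3 and 51.3 TPM at 96 h and 58.0, 38.0 and 63.1 TPM in TLSMG, 2 groups that overlapped. It was 76.3, 84.9 and 88.1 TPM in Gastruloid, 84.1, 78.1 and 66.5 TPM in TLSMGC and 72.5, 81.9 and 98.4 TPM in TLSMGCL. These 3 groups overlapped with each other and lay above all libraries of 96h and TLSMG. Matrigel alone was thus the 120 h condition with the lowest Igfbp2, while Igfbp5 was lowest in TLSMGC.

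Igfbp4 encodes a binding protein that PAPP-A cuts. Its level was 151, 123 and 122 TPM in TLSMG, above every other library. It was 71.4, 76.6 and 43.0 TPM at 96 h, 63.7, 37.5 and 38.6 TPM in Gastruloid, 104, 61.7 and 50.9 TPM in TLSMGC and 83.2, 53.8 and 52.7 TPM in TLSMGCL, and these groups overlapped with their neighbours in the order of means. Replicate 1 was the highest library in each of the 4 groups at 120 h.

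Igfbp3, whose protein carries much of the IGF in adult serum, was lower than the other 3 binding proteins in all groups but 96h, where Igfbp5 was lower. It measured 26.8, 23.8 and 23.5 TPM in TLSMG, 20.4, 22.6 and 22.6 TPM in Gastruloid and 12.8, 16.6 and 17.4 TPM at 96 h. It measured 9.74, 9.69 and 8.71 TPM in TLSMGC and 9.01, 8.08 and 9.18 TPM in TLSMGCL. The last 2 groups overlapped and lay below 96h, and the groups above them in the order of means were separate.

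Igf1 (ENSMUSG00000020053.18, chr10:87858265-87937042, plus strand), the ligand, was near or at 0 at 96 h, with 0.01, 0.01 and 0.00 TPM. It measured 1.45, 1.95 and 1.80 TPM in Gastruloid and 10.7, 10.5 and 8.72 TPM in TLSMG. With CHIR it was low again, at 0.22, 0.49 and 0.11 TPM in TLSMGC and 0.19, 0.12 and 0.12 TPM in TLSMGCL, which overlapped. No ratio is given against these low groups. The antisense gene Igf1os overlaps Igf1 and reached at most 0.0555 TPM. The authors' coverage divided by FPKM, relative to the library's own constant, ran from 0.21 to 0.52 for Igf1 over the libraries and stayed within 1.04-fold for each other member.

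Igf1r (ENSMUSG00000005533.10, chr7:67952827-68233668, plus strand), the receptor, had the smallest ratio of highest to lowest group mean among the 6 genes. TLSMG libraries held 38.3, 43.2 and 44.1 TPM, above all others. Gastruloid libraries held 29.4, 30.0 and 33.9 TPM and 96h libraries 28.4, 27.5 and 27.9 TPM. TLSMGC held 29.1, 26.9 and 25.0 TPM and TLSMGCL 30.4, 21.5 and 28.0 TPM, both of which overlapped with 96h.

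**Figure D1:**
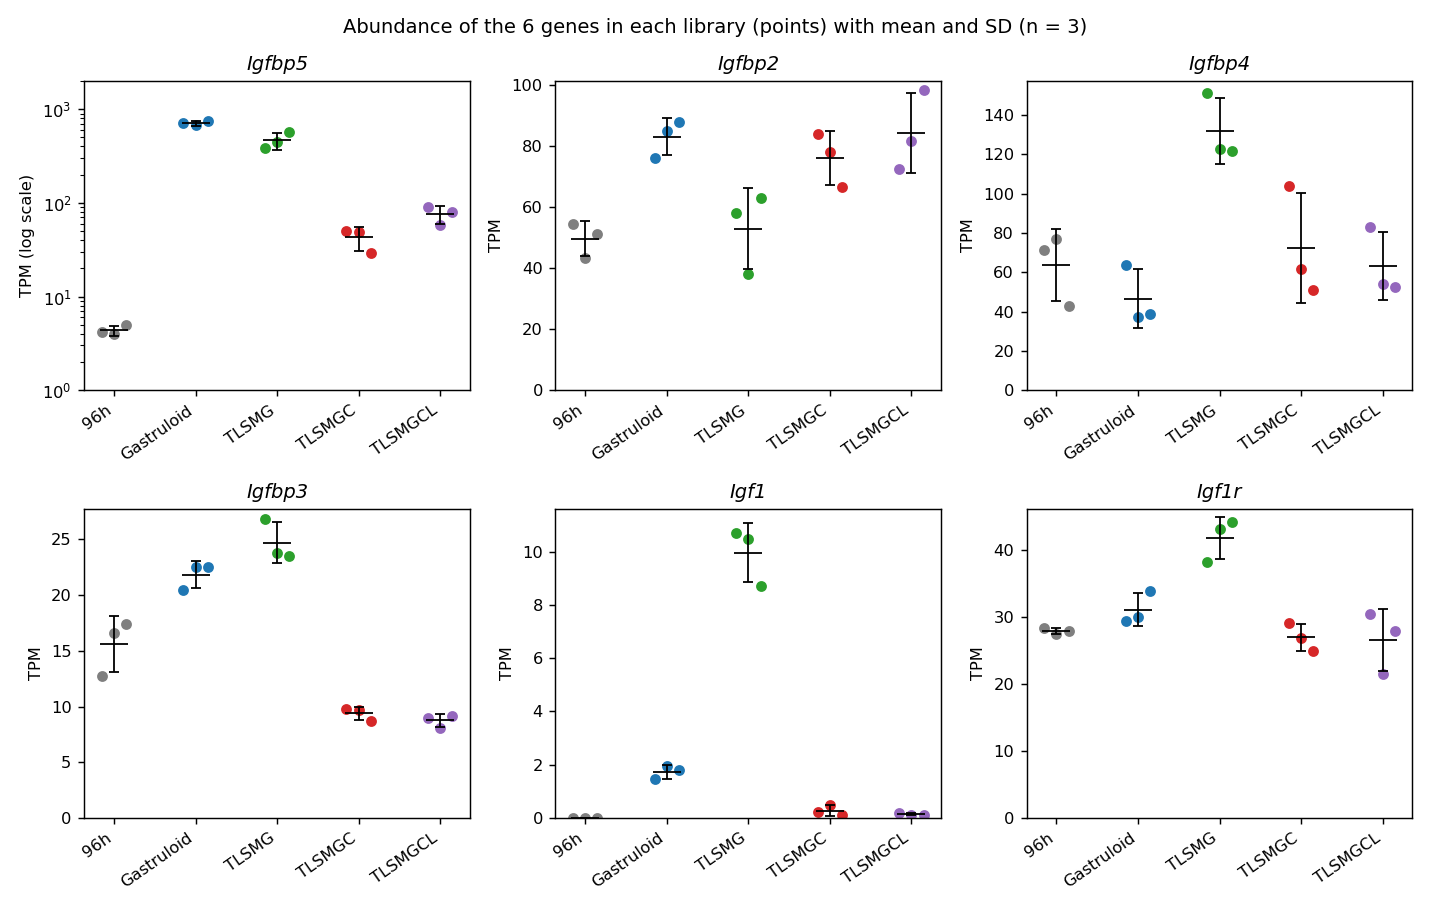
TPM of each gene (vertical axes, linear from 0 except a log scale for Igfbp5) in the 5 groups; points are libraries, bars mean and SD over 3 libraries. Igfbp5 is lowest at 96h and highest in Gastruloid, while Igfbp4, Igfbp3, Igf1 and Igf1r are highest in TLSMG.

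The make-up of the binding protein transcripts differed accordingly. The summed TPM of Igfbp1 to Igfbp7 was 134 ± 14.6 at 96h (SD, n = 3 in each group), 864 ± 44.5 in Gastruloid, 674 ± 86.4 in TLSMG, 201 ± 46.4 in TLSMGC and 233 ± 27.8 in TLSMGCL. At 96 h Igfbp4 took 36.9% to 54.5% of this sum and Igfbp2 30.8% to 43.9%, against 2.82% to 4.24% for Igfbp5. Igfbp5 took 81.5% to 83.5% in Gastruloid and 61.8% to 73.1% in TLSMG. With CHIR no gene held most of the sum: Igfbp5 took 18.6% to 24.6% in TLSMGC and 28.8% to 35.6% in TLSMGCL, beside mean shares of 38.7% and 36.6% for Igfbp2 and 35.2% and 27.0% for Igfbp4. Igfbp3 took a mean of 11.9% at 96h and between 2.53% and 4.80% in the other groups.

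**Figure D2:**
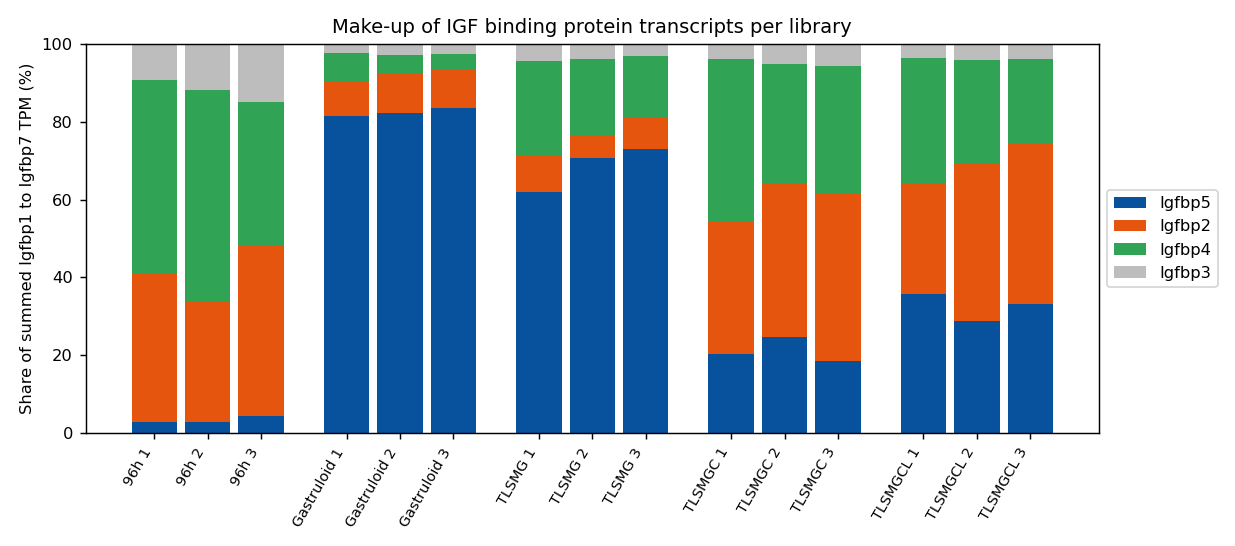
Share of the summed Igfbp1 to Igfbp7 TPM (vertical axis, percent) taken by 4 binding protein genes in each of the 15 libraries (bars, labelled by group and replicate). Igfbp5 takes 81.5% to 83.5% in Gastruloid and at most 4.24% at 96h.

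The comparison of TLSMG with Gastruloid asks what differed with Matrigel at 120 h. Igf1, Igfbp4 and Igf1r were higher, Igfbp2 and Igfbp5 lower, and Igfbp3 did not pass. Igf1 rose by 2.00 on the log2(TPM + 1) scale (SE 0.13, limma adjusted p = 1.75e-06), from a mean of 1.73 to 9.97 TPM. Igfbp4 rose by 1.52 (SE 0.29, adjusted p = 0.00139), which is 2.83-fold in mean TPM. Igfbp5 fell by 0.63 (SE 0.21, adjusted p = 0.0259) and Igfbp2 fell by 0.67 (SE 0.17, adjusted p = 0.00689), or 1.54-fold and 1.57-fold in mean TPM. Igf1r rose by 0.42 (SE 0.11, adjusted p = 0.00927), and Igfbp3 differed by 0.17 (95% interval -0.06 to 0.40, adjusted p = 0.229).

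Of the 6 genes 5 passed, against 39.3% of all genes tested, and 3 were higher and 2 lower, against 31.5% higher and 7.87% lower. The median difference of all genes was 0.13 here. Under median-of-ratios scaling, which puts that median at -0.02, all 5 calls and directions held, and all genes split into 2753 higher and 2584 lower in place of 4497 and 1125. Across 14283 genes, which are not independent, the r of the difference with the gene's GC content was -0.41. After a GC and length correction, chosen after seeing the data, Igf1r differed by 0.02 (adjusted p = 0.816) and its call was lost, and Igf1 rose by 1.23. Igf1r rose by 0.25 under median-of-ratios scaling and 0.24 with FPKM. The Igfbp5 call was lost with no filter on low values (adjusted p = 0.0658) and without Gastruloid replicate 1 (0.0618) or 3 (0.0691) or TLSMG replicate 1 (0.0986) or 2 (0.0681).

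The comparison of TLSMGC with TLSMG asks what differed with added CHIR in Matrigel. Igfbp5, Igf1, Igfbp3, Igfbp4 and Igf1r were lower and Igfbp2 was higher. Igfbp5 fell by 3.43 (SE 0.21, adjusted p = 5.58e-08), which is 10.9-fold lower in mean TPM. Igf1 fell by 3.11 (SE 0.13, adjusted p = 1.44e-09), from 9.97 to 0.274 TPM, and Igfbp3 fell by 1.31 (SE 0.11, adjusted p = 7.85e-07), or 2.63-fold. Igf1r fell by 0.62 (SE 0.11, adjusted p = 0.000634), which is 1.55-fold. Igfbp4 fell by 0.92 (SE 0.29, adjusted p = 0.0206), and Igfbp2 rose by 0.54 (SE 0.17, adjusted p = 0.0194). The libraries of the 2 groups overlapped for none of the 6 genes. How many of all genes tested had no such overlap was not counted, so this describes the 6 genes only.

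The 6 of 6 stand against 40.9% of all genes tested, with 5 lower against 30.5% and 1 higher against 10.4%. The median of all genes was -0.16, and near 0 under median-of-ratios scaling, where the split was 2741 higher and 2572 lower in place of 1490 and 4352. Igfbp4 lost its call there (fell by 0.75, adjusted p = 0.0545), after the GC and length correction (fell by 0.72, adjusted p = 0.07), with no filter (0.0532) and without TLSMG replicate 1 (0.0676) or TLSMGC replicate 2 (0.063) or 3 (0.096). Igfbp2 lost its call when only these 2 groups were fitted (adjusted p = 0.0511) and without TLSMG replicate 2 (0.32, adjusted p = 0.0868), TLSMGC replicate 1 (0.0687) or TLSMGC replicate 2 (0.0518). Igf1r fell by 0.23 after the GC and length correction and kept its call, and Igf1 fell by 4.87 with a pseudocount of 0.1. The calls of Igfbp5, Igf1 and Igfbp3 held under every alternative that gave them a value.

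The comparison of TLSMGCL with TLSMGC asks what differed when LDN was added to CHIR, and no member passed, against 1.18% of all genes tested (0.406% higher and 0.777% lower). In limma at an unadjusted p under 0.05, 1 member remained, Igfbp5, which differed by 0.84 (SE 0.21, 95% interval 0.40 to 1.28, unadjusted p = 0.00118, adjusted p = 0.0739), with 3 of 3 TLSMGCL libraries above all TLSMGC libraries. Igfbp5 passed with FPKM (0.85, adjusted p = 0.0367), median-of-ratios scaling (0.88, 0.0317), the GC and length correction (0.88, 0.0169) and without TLSMGCL replicate 2 (1.02, 0.0416). Over the 14 alternatives its adjusted p ran from 0.0169 to 0.315. The 95% intervals of the others were -0.22 to 0.50 for Igfbp2, -0.32 to 0.14 for Igfbp3, -0.77 to 0.46 for Igfbp4, -0.42 to 0.13 for Igf1 and -0.27 to 0.21 for Igf1r. For Igfbp4 the interval takes in differences at which other members passed in TLSMG against Gastruloid, -0.63 for Igfbp5 and 0.42 for Igf1r. It does not take in the differences at which Igfbp4 itself passed. The Igfbp2 interval also takes in the rise of Igf1r.

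With CHIR and LDN together, TLSMGCL differed from TLSMG in all 6 genes, against 44.9% of all genes tested. Igf1 fell by 3.26 (SE 0.13, adjusted p = 7.85e-10), Igfbp5 by 2.59 (SE 0.21, adjusted p = 4.94e-07) and Igfbp3 by 1.40 (SE 0.11, adjusted p = 3.54e-07). Igfbp4 fell by 1.08 (adjusted p = 0.00818) and Igf1r by 0.64 (adjusted p = 0.000392), and Igfbp2 rose by 0.68 (adjusted p = 0.005). The count of 1 higher and 5 lower stands against 9.31% and 35.6% of all genes. After the GC and length correction Igf1r fell by 0.21, and with a pseudocount of 0.1 Igf1 fell by 5.38, both with their calls kept. The comparisons with TLSMG share its libraries, so they are not independent of each other.

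**Figure D3:**
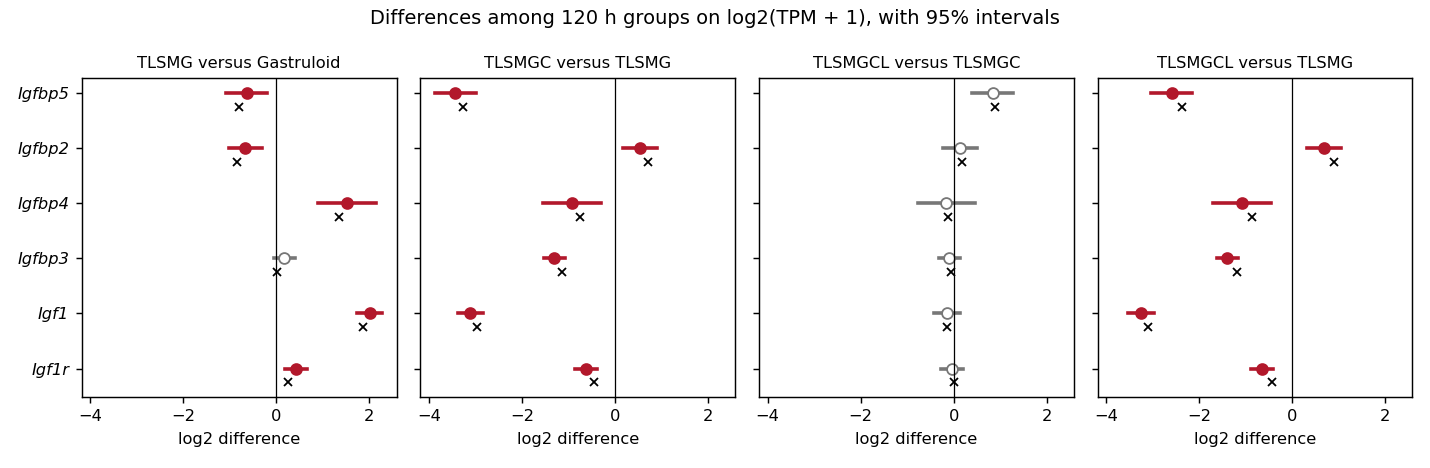
Log2 differences of the 6 genes (horizontal axis, log2(TPM + 1)) in 4 comparisons among 120 h groups, with 95% intervals; red filled circles have an adjusted p under 0.05, open grey circles do not, and crosses give the value under median-of-ratios scaling. Igfbp5, Igf1 and Igfbp3 lie farthest below 0 in the comparisons of both CHIR groups with TLSMG, and no circle is filled for LDN added to CHIR.

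The other ligands and binding proteins were few. Igf2, the ligand expressed most in embryos, varied widely within groups. Its TPM spanned 193 to 844 in TLSMGCL, 178 to 618 in TLSMGC, 277 to 622 in TLSMG, 202 to 505 in Gastruloid and 86.9 to 265 at 96h. It overlaps the same-strand gene Gm49394, listed at 0.068 to 283 TPM, and the antisense Igf2os, so reads may be split between them. The sum of Igf2 and Gm49394 was as widely spread or wider, at 193 to 844 TPM in TLSMGCL and 277 to 622 TPM in TLSMG. It was 178 to 902 TPM in TLSMGC, 202 to 532 TPM in Gastruloid and 87.1 to 376 TPM at 96h. Igf2 passed in none of the 4 comparisons at 120 h. Ins1 was listed at 0 in every library, and Ins2 had group means of at most 0.296 TPM. Igfbp1, Igfbp6, Igfbp7 and Igfals, which encodes the acid-labile subunit of the serum complex, had group means under 1 TPM and were not tested. Igfbpl1 had 8.63 TPM at 96h, 6.66 in Gastruloid, 7.06 in TLSMG, 2.99 in TLSMGC and 2.72 in TLSMGCL. It fell by 1.01 with CHIR (adjusted p = 0.00023).

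Of the other receptors, Insr, the insulin receptor, was higher in TLSMG than in Gastruloid (11.9 against 6.83 TPM, log2 difference 0.73, adjusted p = 0.00107, and 0.27 after the GC and length correction). It was lower in TLSMGC (8.99 TPM, log2 difference -0.38, adjusted p = 0.0341). That call was lost with no filter (adjusted p = 0.0635), FPKM (0.0663), median-of-ratios scaling (0.134), the GC and length correction (0.984) and without TLSMG replicate 2 (0.0877) or 3 (0.0961) or TLSMGC replicate 2 (0.0728) or 3 (0.128). Igf2r, which clears IGF2, fell with CHIR from 57.4 to 38.0 TPM (log2 difference -0.58, adjusted p = 0.001, and -0.21 after the correction). Its rise with Matrigel (0.34, adjusted p = 0.0269) was lost with no filter (adjusted p = 0.0557), FPKM (0.158), median-of-ratios scaling (0.135), the correction (0.87) and without Gastruloid replicate 1 (0.0759) or 2 (0.099) or TLSMG replicate 2 (0.0683) or 3 (0.0878). The insulin receptor-related gene Insrr fell with Matrigel from 2.69 to 1.37 TPM (adjusted p = 0.0069).

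The genes downstream and around the receptor were read from 8 lists of 54 genes other than the members, of which 46 were tested. With Matrigel 23 rose, 1 fell and 22 did not pass, where 31.5% of all genes rose and 7.87% fell, with a median difference of 0.33 against 0.13 over all genes. These were 2 of 3 tested receptors, 2 of 5 proteases and inhibitors, 6 of 8 adaptors, 7 of 16 PI3K, AKT and mTOR genes, 3 of 9 FOXO factors and targets and 3 of 3 Igf2 mRNA binding proteins. Adam12, a protease of binding proteins, rose from 0.775 to 6.83 TPM (2.14, adjusted p = 1.34e-05), and Pappa, which encodes PAPP-A, from 0.612 to 1.95 TPM (0.88, adjusted p = 0.00267). The adaptor genes Grb14 and Grb10, whose products restrain these receptors, rose by 0.99 and 0.47, and Sos1, a RAS exchange factor, by 0.78. Rictor, a subunit of mTOR complex 2, rose by 0.76 and Pik3ca, a catalytic subunit of PI3K, by 0.67. After the GC and length correction only 12 passed, 9 higher and 3 lower, beside 1781 higher and 1503 lower of all genes. With it Rictor (0.16, adjusted p = 0.164), Pik3ca (0.01, 0.909), Pappa (0.38, 0.137), Grb14 (0.52, 0.0554) and Sos1 (0.13, 0.0897) lost their calls. Adam12 kept its call, and Grb10 did at 0.20. Under median-of-ratios scaling 16 passed, 15 higher and 1 lower, beside 2753 higher and 2584 lower of all genes. Igf2bp2 (adjusted p = 0.121) and Igf2bp3 (0.287) lost their calls there, with FPKM and with the correction. Of the 3 FOXO genes, Txnip lost its call in 9 of 14 alternatives, Foxo3 in 4 and Foxo1 in 1, the correction. Txnip did so without Gastruloid replicate 1 (adjusted p = 0.122) or 2 (0.135) or TLSMG replicate 1 (0.112), 2 (0.0931) or 3 (0.0654), and Foxo3 without TLSMG replicate 2 (0.0555).

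With added CHIR 1 gene rose, 34 fell and 11 did not pass, where 10.4% of all genes rose and 30.5% fell, with a median of -0.51 against -0.16 over all genes. Stc2, an inhibitor of PAPP-A, was the gene that rose, from 11.6 to 25.2 TPM (1.07, adjusted p = 0.000146). Adam12 fell to 1.02 TPM (adjusted p = 2.19e-06) and Pappa to 0.585 TPM (adjusted p = 0.00187). Pik3r1, the regulatory subunit of PI3K, fell from 21.2 to 6.28 TPM (-1.62, adjusted p = 5.32e-07), and the transcription factor gene Foxo1 from 12.8 to 3.76 TPM (-1.54, adjusted p = 4.94e-07). The FOXO target Ccng2 fell by 0.99, and the adaptor genes Grb14, Irs1 and Gab1 fell by 1.09, 0.95 and 0.82. The count was 22 after the GC and length correction, 4 higher and 18 lower, beside 3104 higher and 2438 lower of all genes. It was 26 under median-of-ratios scaling, 2 higher and 24 lower, beside 2741 higher and 2572 lower of all genes. The 3 Igf2 mRNA binding proteins were among the 34. Igf2bp3 kept its call in all 14 alternatives, Igf2bp2, whose libraries overlapped, in 5, and Igf2bp1 in 4. Igf2bp2 lost its call under median-of-ratios scaling (adjusted p = 0.37), the correction (0.956) and without TLSMG replicate 2 (0.0793) or 3 (0.0954) or TLSMGC replicate 2 (0.0829) or 3 (0.155). Igf2bp1 had a value of 0.14 after the correction against -0.22 and lost its call under median-of-ratios scaling (adjusted p = 0.568) and without TLSMG replicate 2 (0.145) or 3 (0.114) or TLSMGC replicate 2 (0.0721) or 3 (0.188).

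With LDN added to CHIR none of the 46 passed in limma (6 at an unadjusted p under 0.05), where 1.18% of all genes tested passed. The share of all genes at an unadjusted p under 0.05 was not counted. After the GC and length correction 2 of the 46 passed, beside 277 of all genes in place of 169. With CHIR and LDN together 1 gene rose and 36 fell against TLSMG, where 9.31% of all genes rose and 35.6% fell, again with Stc2 higher (21.6 TPM, adjusted p = 0.00072), and with a median of -0.58 against -0.18 over all genes. With the correction 22 passed, 4 higher and 18 lower, beside 3114 higher and 2439 lower of all genes. Under median-of-ratios scaling 28 passed, 1 higher and 27 lower, beside 2837 higher and 2749 lower of all genes. FOXO factors and targets fell in 9 of 9 tested genes, Foxo1 to 4.17 TPM (-1.43, adjusted p = 7.90e-07). Among them Sesn3 (-1.89, adjusted p = 0.0209) had libraries that overlapped and kept its call in 8 of 14 alternatives. It lost it with no filter (adjusted p = 0.0548), the correction (0.0874) and without TLSMG replicate 2 (0.0863) or 3 (0.0879) or TLSMGCL replicate 1 (0.0659) or 3 (0.0628).

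Against 96h, 17 of the 46 rose and 7 fell in Gastruloid, against 20.8% and 20.5% of all genes tested (41.2% in all). In TLSMG 26 rose and 2 fell, against 33.5% and 12.5%, in TLSMGC 11 rose and 11 fell, against 20.6% and 20.1%, and in TLSMGCL 9 rose and 13 fell, against 17.4% and 22.1%. Under median-of-ratios scaling the split in TLSMG was 20 higher and 4 lower, with 3147 and 3342 of all genes in place of 4792 and 1785. With the correction it was 18 and 7, with 2984 and 3497 of all genes. Either direction was called for 46% of all genes in TLSMG, 40.7% in TLSMGC and 39.5% in TLSMGCL. The secreted serine protease gene Htra1, whose product can cut binding proteins, had 13.1 TPM at 96h and 1.60, 1.09, 0.713 and 1.16 TPM in the other groups. It was lower in all 4 comparisons, by 2.43 to 3.03 on the log2 scale. These comparisons share the 96h libraries.

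**Figure D4:**
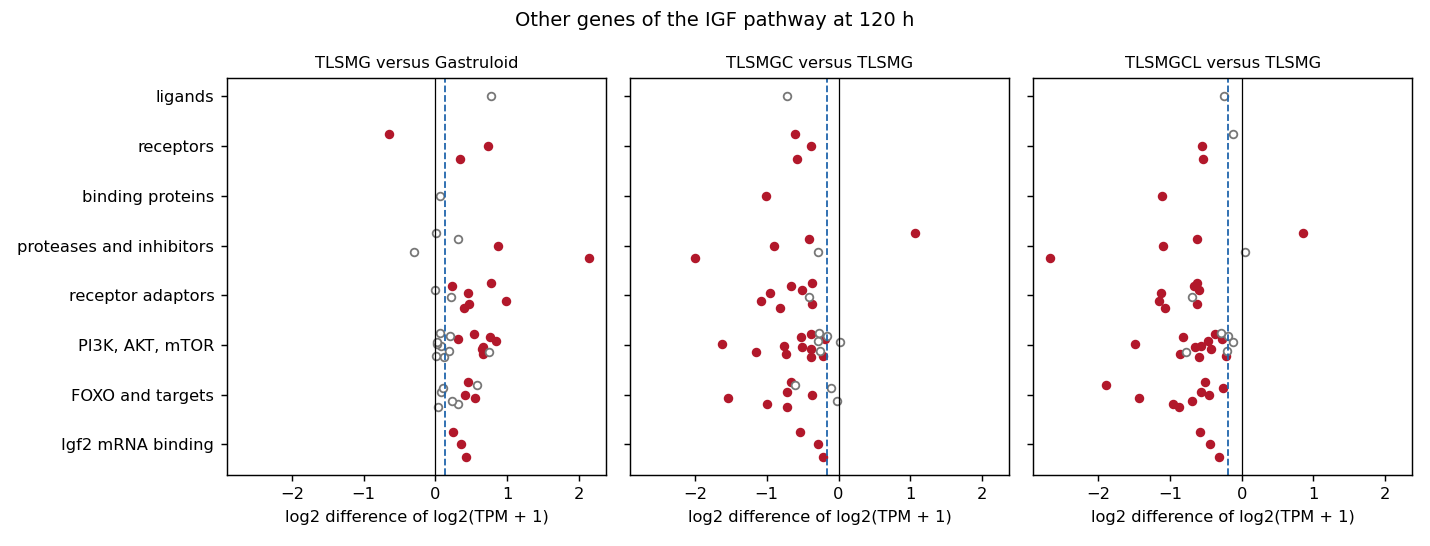
Log2 differences (horizontal axis, log2(TPM + 1)) of the tested genes of 8 lists around the IGF receptor in 3 comparisons; each circle is a gene, filled red where the adjusted p is under 0.05, and the dashed line is the median of all genes. Matrigel shifts most circles right of 0 and CHIR left of 0, and with the GC and length correction 12 genes passed with Matrigel in place of 24.

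Among 2334 genes ranked by the Pearson r of their log2(TPM + 1) with each member over the 15 libraries, the most alike are named as a description. The points share libraries and groups, and the clusters of groups set much of r. For Igfbp5 these were Tdrd7 (0.985), Cadm4 (0.984) and Dtx4 (0.984). For Igf1 they were Ypel2 (0.985), Tmem255a (0.982) and Wt1 (0.982), a gene of mesothelium and kidney progenitors that was listed at 0 at 96h and had 6.23 TPM in TLSMG and 1.68 TPM in Gastruloid. For Igfbp3 they were Hbp1 (0.984), Pnrc1 (0.978) and Abtb2 (0.975), and for Igf1r Dock5 (0.962), Eif2ak2 (0.961) and Mki67 (0.952). Igfbp4 and Igfbp2 had no partner as close, with Nab1 (0.850), Syncrip (0.845) and Trim59 (0.842) for Igfbp4 and Eya2 (0.832), Bmp3 (0.814) and Rps15a-ps4 (0.804) for Igfbp2. Between members r was highest for Igf1 with Igf1r, at 0.885, and Igfbp2 had r of -0.46 with Igfbp4.

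Markers of cell types also moved with the groups, and their part in the results was not tested. In bulk samples fewer cells of a type and less RNA per cell cannot be told apart. Summed TPM of 9 endothelial markers reached 267 to 324 in TLSMG. There Igf1, Igfbp4, Igf1r and Igfbp3 were also highest, though Igfbp3 did not pass against Gastruloid. The endothelial sum was lower in every other group. It was 10.1 to 14.8 in 96h libraries, 34.6 to 45.8 in Gastruloid, 25.1 to 84.5 in TLSMGC and 12.8 to 21.2 in TLSMGCL. The sum of 5 neural crest markers was also highest in TLSMG, at 76.3 to 83.8, against 37.4 to 45.8 in Gastruloid. It was 12.6 to 18.4 in TLSMGC, 16.1 to 19.8 in TLSMGCL and 7.97 to 11.6 in 96h libraries. In each group only 1 of the 5 had a mean of at least 1 TPM, so the sum rests mainly on 1 gene. Tfap2b was at 0 at 96h and in both CHIR groups, and Sox10 was at 0 in TLSMGCL. The 7 presomitic and tailbud markers were highest at 96 h, at 1080 to 1434, and lowest in Gastruloid, at 68.9 to 106. They reached 278 to 346 in TLSMGC and 256 to 280 in TLSMGCL, against 98.4 to 119 in TLSMG. The 4 sclerotome markers summed to 16.4 to 22.7, 79.0 to 93.2, 34.3 to 40.7, 3.08 to 4.26 and 3.58 to 4.33 in 96h, Gastruloid, TLSMG, TLSMGC and TLSMGCL in turn, with Nkx3-2 at 0 at 96h and in TLSMGC. The 7 neural tube markers summed to 65.2 to 88.1, 382 to 518, 203 to 304, 54.3 to 71.3 and 68.8 to 84.6. Both sums, like Igfbp5 and the fibroblast sum below, were highest in Gastruloid and next in TLSMG. Igfbp5 was lowest at 96h, but the sclerotome sum there lay above both CHIR groups and the neural tube sum overlapped with them. The 5 dermomyotome and early muscle markers summed to 21.8 to 28.8, 24.4 to 37.3, 43.9 to 70.1, 44.2 to 53.3 and 34.0 to 49.3 in the same order, with Myod1 at 0 in every library. Unlike Igfbp5, their mean sum was highest in TLSMG. The 6 fibroblast markers, which feeder cells would carry, summed to 7.22 to 10.9, 25.1 to 28.7, 21.1 to 21.8, 6.70 to 7.79 and 3.21 to 5.30, with Lum at 0 in both CHIR groups and Dcn at 0 in TLSMGC. Coverage per FPKM, a measure of relative depth, ran from 3.12 to 6.84 over the libraries, and no gene-level counts were used, so the counting error of each value is unknown.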

How the data were processed

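mRNA was sequenced as stranded, paired-end libraries, per the labels' protocols. Reads were trimmed with cutadapt 2.4, aligned with STAR 2.7.3a and quantified with StringTie 2.0 on mm10, per the submitters' processing notes; the annotation release is not given in the sources used here. The deposited TPM and FPKM values, and the deposited coverage (signal), came from StringTie gene tables with 1 file per library, per the file headers. Lines of 1 gene ID were summed. TPM was tested on the log2(TPM + 1) scale, which understates changes of low genes, with limma 3.58.1 (R 4.3.3): genes averaging 1 TPM or more, 1 linear model over 15 libraries, a mean trend, two-sided p-values adjusted by Benjamini-Hochberg within each comparison, threshold 0.05. The procedure was tested on simulated data. FPKM and coverage served as an alternative and a check. Python 3.11.15 made tables. All 6 members were named, all ligands, receptors and binding proteins, and from each other list at most the 3 largest called differences per comparison; the 3 genes most alike each member needed a range of group means of at least 1. Members and lists were chosen with earlier results of these data known. Promoter windows matched all 6 members. Alternatives were another pseudocount, filters, FPKM, median-of-ratios scaling, fewer groups, a replicate block, leaving out single libraries and, added after seeing the data, a GC and length correction. One result that the naming rule would include is not reported here. The 5 single-cell samples and the NanoString data were not analysed here.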

Additional observations from a re-analysis of the deposited data

How the results depend on the processing

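Among the 120 h groups, 307 values of the members kept direction and side of the threshold, 16 lost and 4 gained a call, and 5, none of them called, changed sign. The sign changes were in TLSMGCL against TLSMGC: Igfbp4 at 0.14 without TLSMGC replicate 1 (range -0.37 to 0.14 over libraries left out), and Igf1r at 0.0082 with median-of-ratios scaling, 0.026 with the GC and length correction, 0.023 without TLSMGC replicate 1 and 0.11 without TLSMGCL replicate 2 (range -0.13 to 0.11). With the GC and length correction counts became, in TLSMG against Gastruloid, 3284 of all genes in place of 5622, and for the other pathway genes 12 in place of 24 there, 22 in place of 35 in TLSMGC against TLSMG and 22 in place of 37 in TLSMGCL against TLSMG. It took the sign of Igf2bp3 in TLSMG against Gastruloid to -0.068 and of Igf2bp1 to 0.14 in TLSMGC and 0.091 in TLSMGCL, each against TLSMG. In TLSMGCL against TLSMGC, 169 genes changed, 42 when only these 2 groups were fitted, 277 with the correction and 56 to 198 with a library left out, 56 without TLSMGC replicate 2, 70 without TLSMGCL replicate 1 and 78 without TLSMGCL replicate 3. Its count of members, 0, became 1 (Igfbp5) with FPKM, median-of-ratios scaling, the correction and without TLSMGCL replicate 2, so that with a library left out it was 0 to 1, and its count of other pathway genes, 0, became 2 with the correction and 1 without TLSMGC replicate 3, so that with a library left out it was 0 to 1 and over all alternatives 0 to 2. The cause was not tested. With FPKM all genes split into 2710 higher and 2705 lower in TLSMG against Gastruloid, and in TLSMGCL against TLSMG median-of-ratios scaling gave 2837 and 2749 in place of 1330 and 5086.

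Labels give the groups the same replicate numbers, but the numbers did not pair the libraries: correlations of same-numbered deviations had means of -0.07 to 0.04, and between 0 and 4 of 6 libraries correlated best with their own number. With the replicate block 5382 genes changed in TLSMG against Gastruloid, 5599 in TLSMGC against TLSMG, 122 in TLSMGCL against TLSMGC and 6187 in TLSMGCL against TLSMG, and 5, 6, 0 and 6 members passed, as without it.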
